A study of Mus musculus with 8 samples.

Results

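The 40 genes described here encode RNA polymerase I components and proteins that assemble ribosomes in the nucleolus of mouse cells. They were taken by symbol from a prepared list of ribosome biogenesis genes, chosen with earlier results of these data known. All 40 were among the 32499 genes of the count table, and all 40 passed the filter on low counts that left 12970 genes for testing. RNA came from cultured pre-B cells derived from the bone marrow of C57BL/6 mice. The 4 groups of 2 libraries received lentivirus for TCF3-ZNF384, for TAF15-ZNF384 or for full-length ZNF384 (genotype label Wild Type), each HA-tagged, or the empty vector. Every group, the empty vector included, lacked Arf, a tumour suppressor product of the Cdkn2a locus that acts through p53 and has also been tied to ribosomal RNA processing, so all comparisons are within an Arf-/- background. Cells were sorted for GFP before RNA extraction. The series describes its replicates as biological but does not say whether they were separate transductions or mice, and the promoter that drives the constructs and the age of the mice are not given in the sources used here.

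The zinc finger protein ZNF384 regulates transcription, and its gene is rearranged in acute leukaemias, where fusions join the amino-terminal part of partners such as TAF15 or TCF3 to ZNF384. Ribosome production starts in the nucleolus, where RNA polymerase I, recruited by factors such as UBTF, transcribes one long precursor of most ribosomal RNA. Small nucleolar ribonucleoproteins (snoRNPs) modify that precursor, the small subunit processome folds and cuts it, and separate sets of factors mature the large subunit. The genes for this machinery are widely expressed, are raised in growing lymphocytes, and include many known targets of the transcription factor MYC.

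Totals ran from 9381954 to 41483660 counts per library, and the 3 shallowest were both TAF15-ZNF384 libraries and replicate 1 of TCF3-ZNF384. The lowest count of any of the 40 genes in any library was 68, for Gar1. Levels below are normalised counts as CPM, read counts scaled to a fixed library size by the TMM method. Reads assigned to Zfp384, the mouse gene of ZNF384, were at 511 and 450.2 CPM with TCF3-ZNF384, 185 and 162 CPM with TAF15-ZNF384, 51.1 and 90.2 CPM with full-length ZNF384, and 23.97 and 21.6 CPM with the empty vector. Each construct group stood above the empty vector without overlap. The count does not separate reads of a construct from those of the cells' own gene. The construct groups also did not overlap each other, so a difference between constructs cannot be told apart from one of their level. The 9 pre-B cell markers summed to between 4025 and 4454 CPM in every library. Myeloid markers summed to at most 1.51 CPM over 6 genes, T and NK cell markers to at most 0.215 CPM over 5 genes with Cd8a at 0, erythroid and megakaryocyte markers to at most 6.63 CPM over 4 genes, and stromal markers to at most 1.01 CPM over 4 genes. In bulk libraries, fewer cells that express a gene and less RNA per cell cannot be told apart.

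Per kilobase of annotated exon, the 40 genes spanned a wide range of levels in the empty vector cells. The median was 28.5 CPM per kb, over the 39 genes matched in the GENCODE vM1 annotation of mm9 (NCBIM37), with Noc2l unmatched. Utp3, a gene with exons that sum to 1601 bases on chromosome 5, was highest at 140.02 CPM per kb, followed by Nop2 at 103.9, Ddx21 at 96.4 and Ncl at 88.4 CPM per kb. The length used joins all annotated exons of a gene, 8257 bases for Ncl, so these ranks depend on the annotated transcripts. Without division by length, the empty vector mean was 730 CPM for Ncl and 224 CPM for Utp3. The lowest were Polr1b at 3.54, Nolc1 at 4.09 and Polr1a at 4.89 CPM per kb. The matched genes lay on 16 chromosomes, so they are no cluster of neighbours. In this annotation, 7 of them held 20 small nucleolar RNA entries within their bounds. Exons of Nop56 and Ppan contain annotated small nucleolar RNAs on the same strand, and exons of 10 genes overlap another gene's exons on the opposite strand. The counting step's strand setting is not given in the sources used here, so reads of such partners cannot be told apart from those of the genes named. Npm1 has processed pseudogene copies, and its counts depend on how the authors treated reads with several matches.

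The group means fell into one order for most of the 40 genes. The mean was lowest with TCF3-ZNF384 for 37 genes, lowest with TAF15-ZNF384 for 2 and lowest with the empty vector for 1, which was Ubtf. It was highest with full-length ZNF384 for 32 genes, highest with the empty vector for 7, and highest with TCF3-ZNF384 for Ubtf alone. The complete order from TCF3-ZNF384 through TAF15-ZNF384 and the empty vector to full-length ZNF384 held for 29 of the 40 genes, and the same order held for 12.9% of all tested genes. Summed over the 40 genes, the level was 3248 and 3254 CPM with TCF3-ZNF384, 3794 and 3780.3 CPM with TAF15-ZNF384, 6702 and 4827 CPM with full-length ZNF384, and 5224 and 4893 CPM with the empty vector. The fusion libraries lay below all 4 others, and the full-length libraries lay on either side of the empty vector. Gene by gene, both full-length libraries lay above both empty vector libraries in 15 of the 40, against 32.2% of all tested genes. Without full-length replicate 1, the median log2 fold change of full-length ZNF384 over the empty vector was −0.068.

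**Figure D1:**
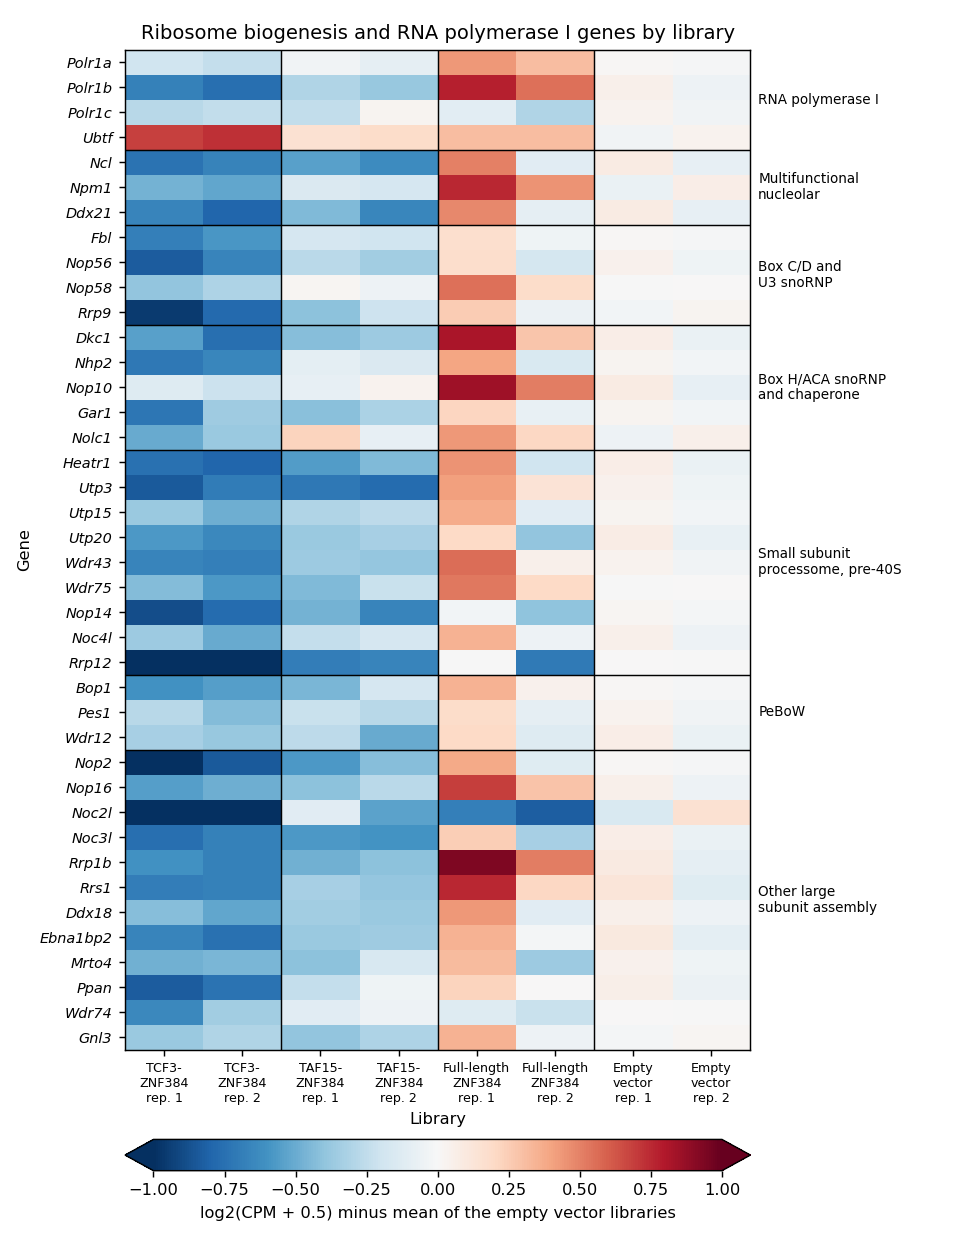
Level of each gene (rows, grouped by role) in each of the 8 libraries (columns), as log2(CPM + 0.5) minus the mean of the 2 empty vector libraries; blue is lower and red is higher, with colours capped at −1 and 1. The TCF3-ZNF384 columns are blue for all genes but Ubtf, the TAF15-ZNF384 columns are mostly paler, and replicate 1 of full-length ZNF384 is redder than replicate 2.

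Across the 8 libraries the genes moved together, as a description of libraries that share groups and scaling. Of the 780 pairs of genes, 741 (95%) had a positive Pearson correlation, with a median r of 0.87. Ubtf was the exception, with a mean r of −0.58 against the other 39 genes. Polr1c followed the rest only loosely, at a mean r of 0.38.

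TCF3-ZNF384 was compared with the empty vector to ask how this fusion changed the machinery. Of the 40 genes, 35 fell and 1 rose in edgeR's quasi-likelihood test at a Benjamini-Hochberg adjusted p of 0.05 over all tested genes. Over all 12970 tested genes, 17.0% were called lower and 16.2% higher. The median log2 fold change was −0.63 for the 40 genes, a fold of 0.647, and 0.01 for all tested genes. Both TCF3-ZNF384 libraries lay below both empty vector libraries in 39 of the 40 genes, where 35.2% of all tested genes did so. The drop reached at least 1.5-fold for 21 genes. The genes that fell included all 9 small subunit factors, all 4 box C/D and U3 snoRNP proteins, all 3 PeBoW proteins, the 3 multifunctional nucleolar proteins, 4 of 5 box H/ACA proteins and 11 of 12 other large subunit factors. The genes past no threshold were Mrto4 at −0.48 ± 0.19, Polr1c at −0.27 ± 0.12, Polr1a at −0.22 ± 0.10 and Nop10 at −0.18 ± 0.12, as log2 fold changes ± SE. With 1 library left out in turn, the count of genes called lower ran from 23, without TCF3-ZNF384 replicate 2, to 36, and 20 of the 35 were called lower in every one of these 8 fits. Under scaling by total counts the count was 19, and that scaling raised the median of all tested genes to 0.32. The median of the 40 genes lay 0.64 log2 below that of all tested genes under either scaling.

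**Figure D2:**
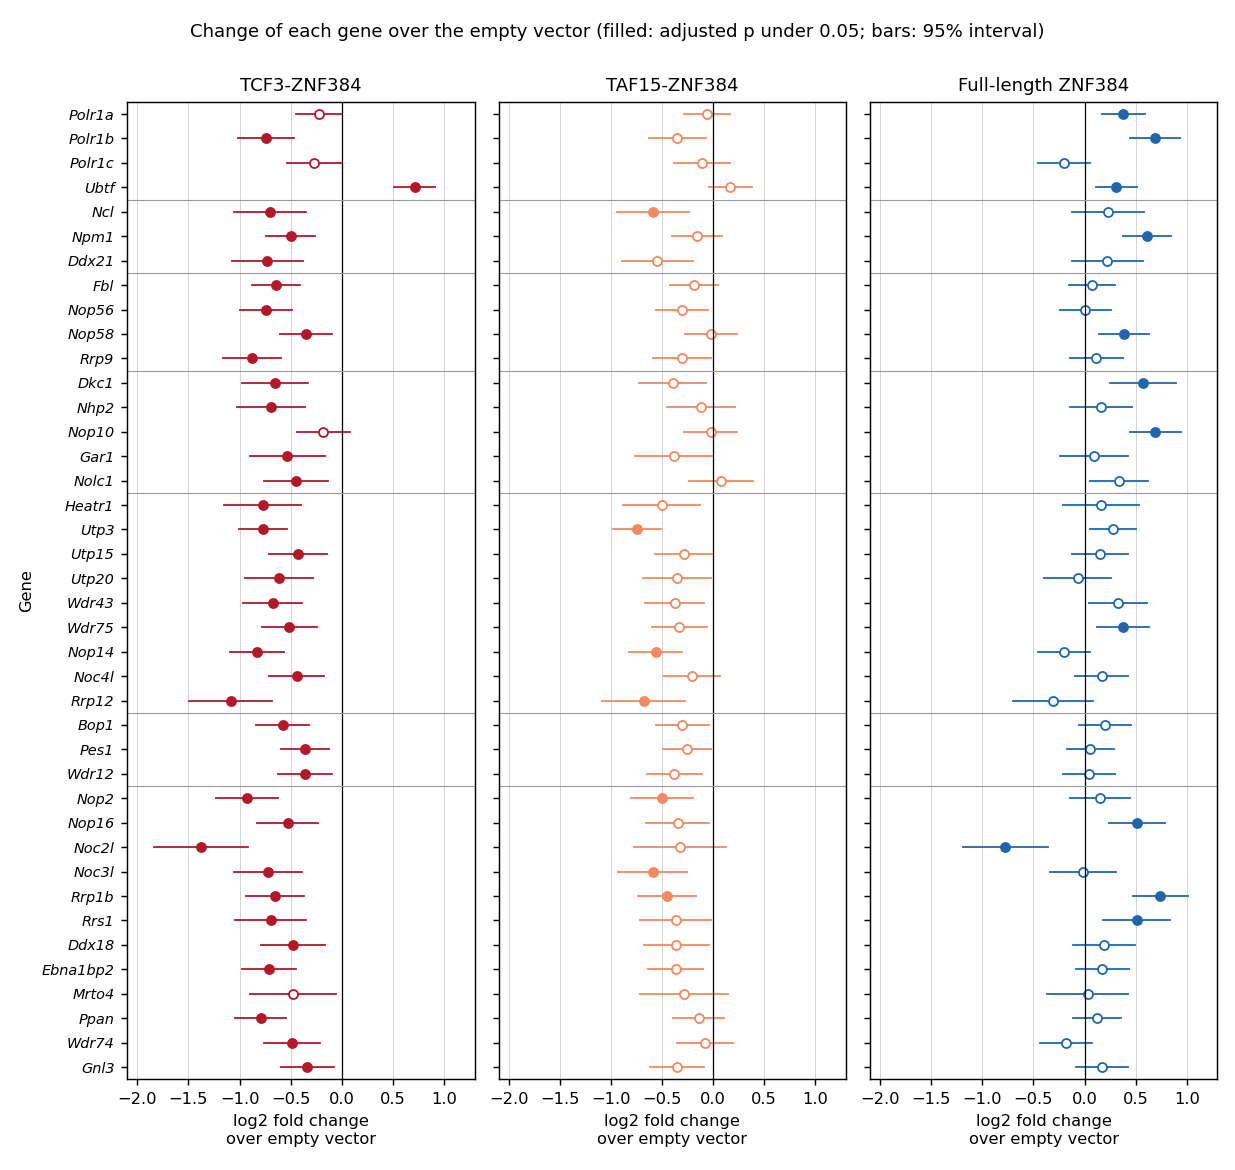
Log2 fold change of each gene (rows, in the order of roles used above) over the empty vector with TCF3-ZNF384, TAF15-ZNF384 and full-length ZNF384, with 95% intervals from the edgeR fit; filled points passed an adjusted p of 0.05. Points lie left of 0 for 39 genes with TCF3-ZNF384, 7 are filled with TAF15-ZNF384, and 12 are filled with full-length ZNF384.

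The promoters of these genes were examined for the MYC recognition sequence because so many of them moved together. RefSeq promoter sequences (GRCm38.p6, 250 bases before to 50 bases after the annotated start) were available for 35 of the 40 genes. The motif CACGTG, which reads the same on both strands, was found in the promoters of 4 of these 35 genes (11.4%), against 11.8% of the 9041 tested genes with a promoter sequence. The variant CGCGTG, which differs from it by a letter and was searched on both strands as CGCGTG or CACGCG, was found in 11 of the 35 (31.4%), against 20.75% of tested genes. Nop2 is shown because it fell with both fusions and holds CACGTG before its start, Nolc1 because it holds CGCGTG, and Polr1b because it was among the most changed genes and has neither motif in the bases shown. The 120 bases before each start are given on the plus strand, the coding strand of all 3 genes, for Nop2 (chr6:125131763-125131882), Nolc1 (chr19:46075727-46075846) and Polr1b (chr2:129100876-129100995), with the motif in capitals.
Nop2: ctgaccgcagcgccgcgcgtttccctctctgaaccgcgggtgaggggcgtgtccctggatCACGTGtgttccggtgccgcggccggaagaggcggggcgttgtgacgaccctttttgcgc
Nolc1: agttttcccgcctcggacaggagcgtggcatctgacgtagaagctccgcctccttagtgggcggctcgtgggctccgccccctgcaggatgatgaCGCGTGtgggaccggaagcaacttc
Polr1b: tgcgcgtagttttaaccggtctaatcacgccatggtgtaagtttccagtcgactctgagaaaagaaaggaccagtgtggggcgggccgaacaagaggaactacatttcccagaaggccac
A match in these windows is a match of letters and was not tested for binding.

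Within the RNA polymerase I group, the genes went different ways. UBTF, encoded by Ubtf on chromosome 11 (102165874 to 102181056, minus strand, mm9), binds the ribosomal RNA gene promoter and body and keeps the genes open. Ubtf was at 81.9 and 84.96 CPM with TCF3-ZNF384, 56.6 and 57.97 CPM with TAF15-ZNF384, 63.3 and 63.05 CPM with full-length ZNF384, and 49.6 and 52.3 CPM with the empty vector. The TCF3-ZNF384 libraries were the highest of all 8, and both empty vector libraries the lowest. The log2 fold change over the empty vector was 0.71 ± 0.09 with TCF3-ZNF384 (edgeR adjusted p = 5.67e-05), 0.17 ± 0.10 with TAF15-ZNF384 (edgeR adjusted p = 0.281) and 0.31 ± 0.09 with full-length ZNF384 (edgeR adjusted p = 0.0286). The rise with TCF3-ZNF384 kept its call under all 18 alternative settings run. The rise with full-length ZNF384 lost its call in 6 of the 8 fits that left out 1 library, with an adjusted p of up to 0.195 in edgeR.

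Polr1b, on chromosome 2 (128926731 to 128952330, mm9), encodes the catalytic partner of the largest subunit. It was at 12.7 and 12.01 CPM with TCF3-ZNF384, 16.6 and 15.7 CPM with TAF15-ZNF384, 35.7 and 30.3 CPM with full-length ZNF384, and 21.3 and 19.8 CPM with the empty vector. The 4 groups did not overlap in any pair. Polr1b fell with TCF3-ZNF384 (−0.74 ± 0.13, edgeR adjusted p = 0.00056), was −0.35 ± 0.13 with TAF15-ZNF384 (edgeR adjusted p = 0.101) and rose with full-length ZNF384 (0.68 ± 0.11, edgeR adjusted p = 0.000937).

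The largest subunit gene Polr1a was at 27.9 and 27.2 CPM with TCF3-ZNF384, 31.3 and 30.3 CPM with TAF15-ZNF384, 43.6 and 39.8 CPM with full-length ZNF384, and 32.5 and 31.9 CPM with the empty vector. It was higher than elsewhere in both full-length libraries. Polr1a rose with full-length ZNF384 (0.38 ± 0.10, edgeR adjusted p = 0.0142), a call lost without full-length replicate 1 (edgeR adjusted p = 0.0642) and without either empty vector replicate (edgeR adjusted p of 0.0791 and 0.124). Polr1c encodes a subunit shared with RNA polymerase III. Its level was 20.1 and 20.5 CPM with TCF3-ZNF384, 20.4 and 24.9 CPM with TAF15-ZNF384, 22.6 and 19.7 CPM with full-length ZNF384, and 24.99 and 23.8 CPM with the empty vector, a narrow range in which no comparison passed the threshold. Its mean in the highest group was 1.20 times that in the lowest.

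The 3 multifunctional nucleolar proteins all fell with TCF3-ZNF384. Ncl encodes nucleolin, which takes part in transcription and early folding of the precursor, and was the most abundant of the 40 genes in CPM. It was at 437 and 459 CPM with TCF3-ZNF384, 499.6 and 470.2 CPM with TAF15-ZNF384, 1034 and 674 CPM with full-length ZNF384, and 771 and 689 CPM with the empty vector. All 4 fusion libraries lay below the other 4. Ncl fell with TCF3-ZNF384 (−0.70 ± 0.16, edgeR adjusted p = 0.00602) and with TAF15-ZNF384 (−0.59 ± 0.16, edgeR adjusted p = 0.0388). The TCF3-ZNF384 call was lost without replicate 1 of that group (edgeR adjusted p = 0.0534), and the TAF15-ZNF384 call in 6 of 8 fits without 1 library (edgeR adjusted p up to 0.201).

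Npm1 encodes nucleophosmin, a histone and ribosome chaperone. Its level was 62.8 and 60.7 CPM with TCF3-ZNF384, 78.7 and 77.5 CPM with TAF15-ZNF384, 147 and 119 CPM with full-length ZNF384, and 83.3 and 91.3 CPM with the empty vector. Full-length libraries were the highest and TCF3-ZNF384 libraries the lowest, with no overlap between any pair of groups. Npm1 fell with TCF3-ZNF384 (−0.50 ± 0.11, edgeR adjusted p = 0.00374) and rose with full-length ZNF384 (0.61 ± 0.11, edgeR adjusted p = 0.00151); the first call was lost under total-count scaling. Ddx21, an RNA helicase that links RNA polymerase I and II transcription, fell with TCF3-ZNF384 (−0.73 ± 0.16, edgeR adjusted p = 0.0047) and was −0.55 ± 0.16 with TAF15-ZNF384, at the threshold without passing it (edgeR adjusted p = 0.05).

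The box C/D snoRNPs guide ribose methylation of ribosomal RNA. Fbl encodes fibrillarin, their methyltransferase, and was at 23.9 and 25.7 CPM with TCF3-ZNF384, 34.6 and 33.7 CPM with TAF15-ZNF384, 43.8 and 37.7 CPM with full-length ZNF384, and 39.2 and 38.5 CPM with the empty vector. Both TCF3-ZNF384 libraries lay below the other 6. Fbl fell with TCF3-ZNF384 over the empty vector (−0.64 ± 0.11, edgeR adjusted p = 0.000531) and was −0.19 ± 0.11 with TAF15-ZNF384 and 0.07 ± 0.10 with full-length ZNF384, neither past the threshold. The core proteins Nop56 and Nop58 fell with TCF3-ZNF384 by log2 changes of −0.74 ± 0.12 and −0.35 ± 0.12, of which the Nop58 call was lost without either replicate of TCF3-ZNF384, TAF15-ZNF384 or the empty vector (edgeR adjusted p up to 0.202).

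Rrp9 encodes the protein that marks the U3 snoRNP, which is needed for the early cuts. Rrp9 stood at 16.8 and 19.1 CPM with TCF3-ZNF384, 24.8 and 28.7 CPM with TAF15-ZNF384, 39.5 and 31.8 CPM with full-length ZNF384, and 32.4 and 33.8 CPM with the empty vector. The TCF3-ZNF384 libraries were again below all others. The log2 change with TCF3-ZNF384 was −0.88 ± 0.13 (edgeR adjusted p = 0.000186).

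The box H/ACA snoRNPs guide pseudouridylation, with dyskerin (Dkc1) as the enzyme and Nhp2, Nop10 and Gar1 as partners. Nolc1 encodes a phosphoprotein chaperone of snoRNPs. Dkc1, Nhp2, Gar1 and Nolc1 fell with TCF3-ZNF384, by log2 changes from −0.69 ± 0.15 for Nhp2 to −0.45 ± 0.15 for Nolc1. The Nolc1 call was lost without either replicate of TCF3-ZNF384 or the empty vector (edgeR adjusted p up to 0.168), the Gar1 call without TCF3-ZNF384 replicate 1 or either empty vector replicate (up to 0.211), and the Dkc1 call without TCF3-ZNF384 replicate 2 (0.0636). The DESeq2 Wald test called neither Gar1 nor Nolc1. Nop10 differed, at 76.5 and 72.1 CPM with TCF3-ZNF384, 79.2 and 85.9 CPM with TAF15-ZNF384, 152 and 119.8 CPM with full-length ZNF384, and 88.7 and 79.3 CPM with the empty vector. Both full-length libraries lay above the other 6, while fusion and empty vector libraries lay close together. Nop10 rose with full-length ZNF384 (0.69 ± 0.12, edgeR adjusted p = 0.00103).

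The small subunit processome supplied some of the clearest changes. Utp3, also known as Sas10, encodes a processome component, and its gene lies on chromosome 5 (88983508 to 88985108, plus strand, mm9). Utp3 stood at 125 and 138 CPM with TCF3-ZNF384, 136 and 131 CPM with TAF15-ZNF384, 297 and 246 CPM with full-length ZNF384, and 231 and 217 CPM with the empty vector. The 4 fusion libraries lay between 124.7 and 137.7 CPM, below all of the other 4. The log2 changes were −0.77 ± 0.11 with TCF3-ZNF384 (edgeR adjusted p = 0.000107) and −0.75 ± 0.11 with TAF15-ZNF384 (edgeR adjusted p = 0.000625), and Utp3 was the one gene of the 40 whose TAF15-ZNF384 call held under all 18 alternative settings.

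Nop14 encodes a processome protein of the same early particle as Noc4l. Its level was 120.5 and 130.2 CPM with TCF3-ZNF384, 160.4 and 141 CPM with TAF15-ZNF384, 219 and 169 CPM with full-length ZNF384, and 226 and 219 CPM with the empty vector. The fusion libraries were all below the other 4. Nop14 fell with TCF3-ZNF384 (−0.83 ± 0.12, edgeR adjusted p = 0.000155) and with TAF15-ZNF384 (−0.56 ± 0.12, edgeR adjusted p = 0.00927). The second call was lost without either TAF15-ZNF384 replicate (edgeR adjusted p of 0.0533 and 0.136) and without empty vector replicate 1 (edgeR adjusted p = 0.0745). Rrp12, whose yeast counterpart acts in export of pre-ribosomes, had the largest drop of the group with TCF3-ZNF384 at −1.09 ± 0.18 (edgeR adjusted p = 0.00132). The other 6 genes, Heatr1, Utp15, Wdr43, Wdr75, Utp20 and Noc4l, fell with TCF3-ZNF384 by log2 changes between −0.77 ± 0.17 for Heatr1 and −0.43 ± 0.13 for Utp15. The Utp15 call was lost without either replicate of TCF3-ZNF384 or the empty vector (edgeR adjusted p up to 0.164). The calls of Utp20 and Noc4l were lost without TCF3-ZNF384 replicate 2 or empty vector replicate 1 (up to 0.0712 and 0.145), and that of Wdr75 without TCF3-ZNF384 replicate 2 (0.082).

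Among large subunit factors, Bop1, Pes1 and Wdr12 form the PeBoW complex, which is needed to process the large subunit RNA. They fell with TCF3-ZNF384 by log2 changes of −0.58 ± 0.12, −0.36 ± 0.11 and −0.36 ± 0.12, of which the Pes1 and Wdr12 calls were lost without either TCF3-ZNF384 or either empty vector replicate (edgeR adjusted p up to 0.201 for Pes1 and 0.205 for Wdr12). Nop2, on chromosome 6 (125081901 to 125094771, plus strand, mm9), encodes a methyltransferase of the large ribosomal RNA and has long been used as a proliferation antigen. Nop2 stood at 134 and 152 CPM with TCF3-ZNF384, 183 and 203 CPM with TAF15-ZNF384, 355 and 250.5 CPM with full-length ZNF384, and 275 and 270.3 CPM with the empty vector. The TCF3-ZNF384 libraries were lowest and the TAF15-ZNF384 libraries next. Nop2 fell with TCF3-ZNF384 (−0.93 ± 0.14, edgeR adjusted p = 0.000239) and with TAF15-ZNF384 (−0.50 ± 0.14, edgeR adjusted p = 0.0375). The second call was lost in 6 of 8 fits without 1 library (edgeR adjusted p up to 0.267).

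Noc2l encodes a protein of the complex that accompanies the large subunit out of the nucleolus, also described as an inhibitor of histone acetyltransferases. The gene was among the lowest in CPM, and its level was 6.90 and 11.6 CPM with TCF3-ZNF384, 22.8 and 16.9 CPM with TAF15-ZNF384, 15.2 and 13.7 CPM with full-length ZNF384, and 22.2 and 27.5 CPM with the empty vector. The TCF3-ZNF384 and full-length libraries were below both empty vector libraries, and the 2 TCF3-ZNF384 libraries differed widely. Noc2l had the largest change of the 40 genes with TCF3-ZNF384 (−1.38 ± 0.21, edgeR adjusted p = 0.000439) and was the one gene that fell with full-length ZNF384 (−0.78 ± 0.19, edgeR adjusted p = 0.0137). The second call was lost without either full-length replicate (edgeR adjusted p of 0.0675 and 0.0728) and without empty vector replicate 2 (edgeR adjusted p = 0.125).

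Its partner Noc3l was at 62.1 and 65.7 CPM with TCF3-ZNF384, 70.3 and 69.5 CPM with TAF15-ZNF384, 125 and 83.4 CPM with full-length ZNF384, and 110.3 and 100.4 CPM with the empty vector. The fusion libraries were below the other 4. Noc3l fell with TCF3-ZNF384 (−0.72 ± 0.15, edgeR adjusted p = 0.00345) and with TAF15-ZNF384 (−0.59 ± 0.15, edgeR adjusted p = 0.0301); the second call was lost without either TAF15-ZNF384 replicate (edgeR adjusted p of 0.167 and 0.181) and without either empty vector replicate (edgeR adjusted p of 0.0663 and 0.163).

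Ppan, the counterpart of a yeast factor of early large subunit particles, was at 25.5 and 27.2 CPM with TCF3-ZNF384, 38.8 and 44.3 CPM with TAF15-ZNF384, 53.6 and 45.9 CPM with full-length ZNF384, and 47.6 and 44.1 CPM with the empty vector. The TCF3-ZNF384 libraries stood apart, and the TAF15-ZNF384 libraries overlapped those of the empty vector. Ppan fell with TCF3-ZNF384 (−0.79 ± 0.12, edgeR adjusted p = 0.000144) and was −0.14 ± 0.12 with TAF15-ZNF384 (edgeR adjusted p = 0.473). Rrp1b, a nucleolar protein of the large subunit pathway, was at 52.1 and 49.6 CPM with TCF3-ZNF384, 56.97 and 59.98 CPM with TAF15-ZNF384, 153 and 114 CPM with full-length ZNF384, and 84.7 and 75.00 CPM with the empty vector. The 4 groups did not overlap in any pair, with full-length libraries highest and TCF3-ZNF384 libraries lowest. It fell with TCF3-ZNF384 (−0.65 ± 0.13, edgeR adjusted p = 0.0017) and rose with full-length ZNF384 (0.74 ± 0.13, edgeR adjusted p = 0.00105). The remaining factors Nop16, Rrs1, Ddx18, Ebna1bp2, Wdr74 and Gnl3 fell with TCF3-ZNF384 by log2 changes from −0.71 ± 0.12 for Ebna1bp2 to −0.34 ± 0.12 for Gnl3. The Gnl3 call was lost without any 1 replicate of either fusion or the empty vector (edgeR adjusted p up to 0.219), and the Ddx18 call without either replicate of TCF3-ZNF384 or the empty vector (up to 0.145). The Nop16 call was lost without either TCF3-ZNF384 replicate or empty vector replicate 1 (up to 0.066), and the Wdr74 call without TCF3-ZNF384 replicate 1 (0.116).

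**Figure D3:**
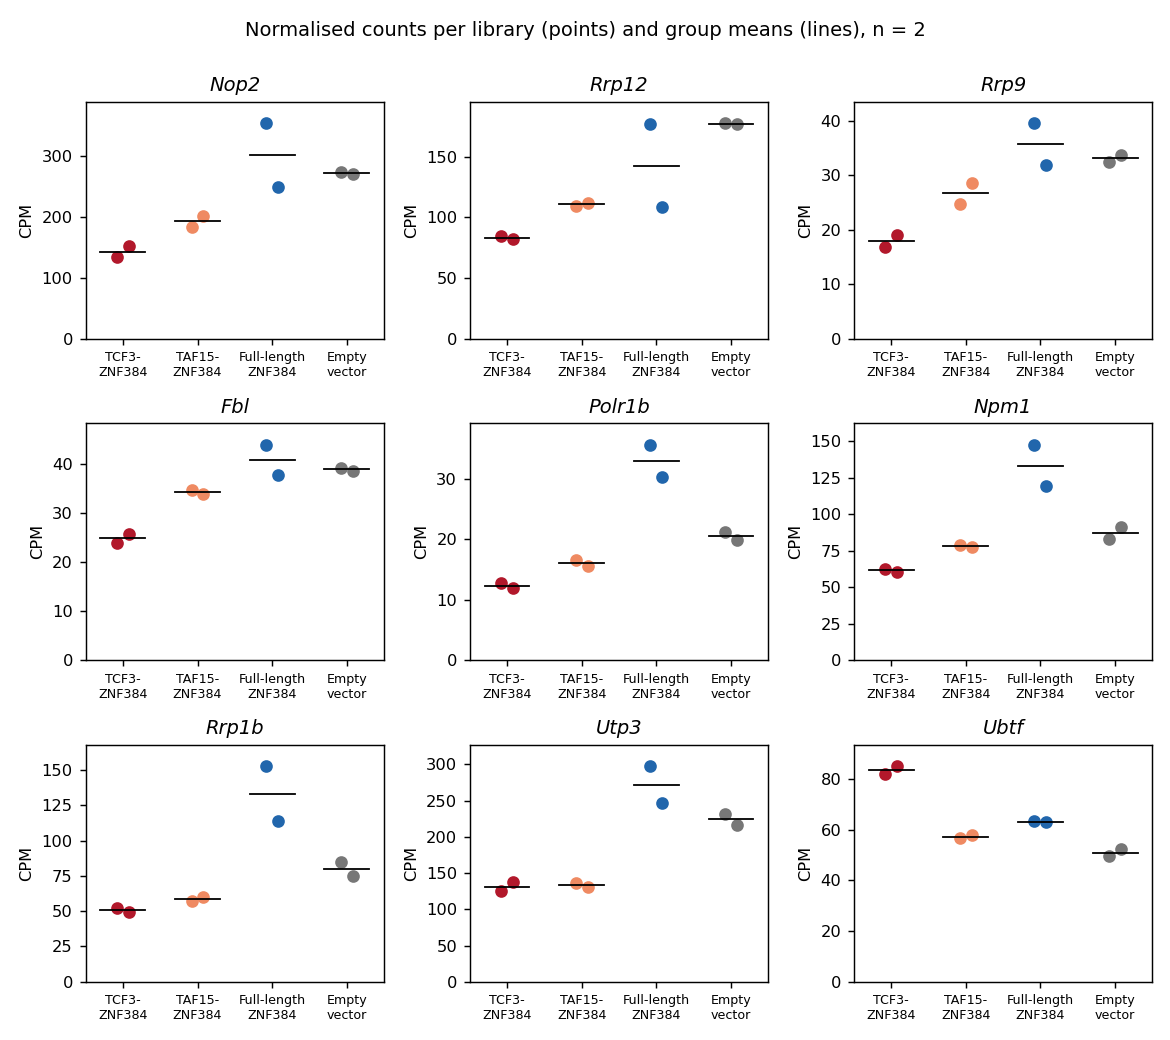
CPM of 9 genes in each library (points) with group means (lines), n = 2 per group, each axis starting at 0. Nop2, Rrp9 and Fbl were lowest with TCF3-ZNF384, Polr1b, Npm1 and Rrp1b were also raised with full-length ZNF384, Utp3 was low with both fusions, and Ubtf was highest with TCF3-ZNF384.

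TAF15-ZNF384 gave a smaller set of calls against the empty vector. Of the 40 genes, 7 fell and 0 rose in edgeR's quasi-likelihood test, against 6.01% of all tested genes called lower and 5.01% called higher. The 7 were Utp3, Nop14, Noc3l, Nop2, Ncl, Rrp12 at −0.68 ± 0.18 (edgeR adjusted p = 0.0407) and Rrp1b at −0.45 ± 0.13 (edgeR adjusted p = 0.0424). The median log2 fold change was −0.34 for the 40 genes and 0.01 for all tested genes, and at an unadjusted p under 0.05 there were 24 lower and 0 higher. The DESeq2 Wald test and limma-voom called 0 higher too. Both libraries lay below both empty vector libraries in 33 genes, where 30.3% of all tested genes did so. Which genes passed depended on the libraries in the fit. The count was 1 without either TAF15-ZNF384 replicate and without empty vector replicate 1, 2 without empty vector replicate 2, 3 without either TCF3-ZNF384 replicate, and 24 without either full-length replicate. The median stayed between −0.37 and −0.30 in these fits. A fit with the replicate number as a block called 13 lower.

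Full-length ZNF384 was set against the empty vector to describe the wild-type protein beside the fusions, which also differed from it in Zfp384 reads. Of the 40 genes, 11 rose and 1, Noc2l, fell in the edgeR test, against 10.8% of all tested genes called higher and 9.87% called lower. The genes that rose were Polr1b, Nop10, Rrp1b, Npm1, Polr1a and Ubtf, given above, with Nop16 at 0.52 ± 0.13, Dkc1 at 0.57 ± 0.15, Rrs1 at 0.51 ± 0.15, Nop58 at 0.38 ± 0.12 and Wdr75 at 0.38 ± 0.12. Without full-length replicate 1, the last-named changes were smaller. They were 0.28 for Nop16, 0.26 for Dkc1, 0.19 for Rrs1, 0.17 for Nop58 and 0.19 for Wdr75. The median log2 fold change was 0.17 for the 40 genes and 0.03 for all tested genes. Both full-length libraries lay above both empty vector libraries in 15 genes, where 32.2% of all tested genes did so, and below them in 5, where 26.2% did so. Of the 11 genes, only Polr1b, Nop10, Rrp1b and Npm1 were called higher under all 18 alternative settings.

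The full-length replicates differed from each other in these genes. Replicate 1 was above replicate 2 in 40 of 40, by a median of 0.37 on the log2 scale, from 0.01 for Ubtf to 0.70 for Rrp12. Among all tested genes, 50.2% were higher in replicate 1. Reads assigned to Zfp384, given above, went the other way, lower in replicate 1 than in replicate 2. The source of the gap between these replicates was not tested. Within the other groups, replicate 1 was the higher in 18 genes with TCF3-ZNF384, 19 with TAF15-ZNF384 and 32 with the empty vector, where the median gap was 0.07. Without full-length replicate 1, 5 of the 40 genes (12.5%) were called higher and 5 lower over the empty vector, near the 8.93% and 9.32% of all tested genes in that fit, and the median turned to −0.068. The 5 higher were Polr1b, Ubtf, Npm1, Nop10 and Rrp1b, and the 5 lower were Utp20, Nop14, Rrp12, Noc3l and Mrto4. Without full-length replicate 2, 25 were called higher. The count was 7 without empty vector replicate 1 or any fusion library, and 4 without empty vector replicate 2.

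**Figure D4:**
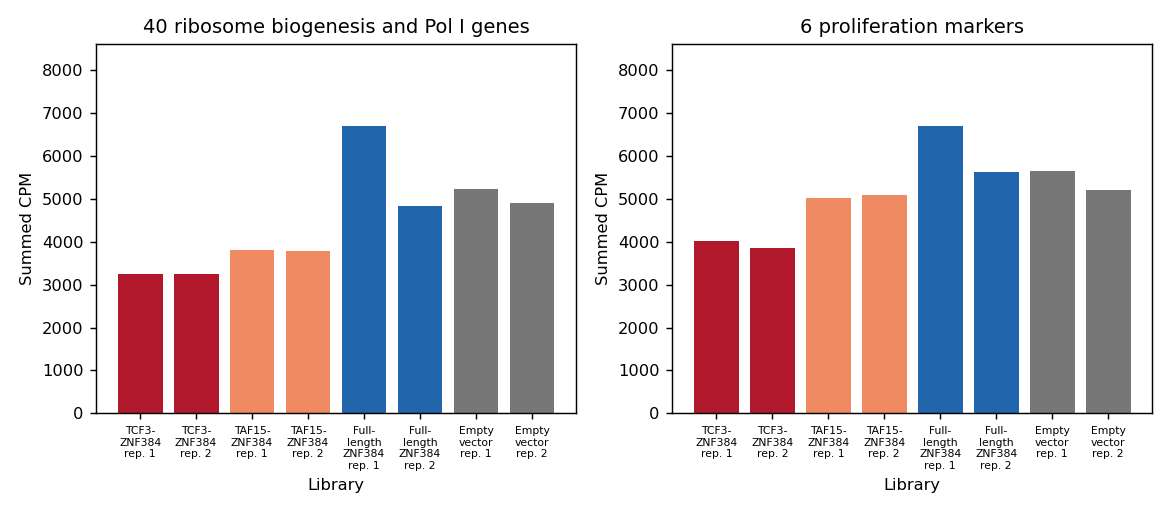
Summed CPM of the 40 genes (left) and of 6 proliferation markers (right) in each library. The TCF3-ZNF384 sums, 3248 and 3254 CPM on the left and 4015 and 3841 CPM on the right, are the lowest in both panels, and full-length replicate 1 is the highest in both.

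Against full-length ZNF384, both fusions were lower over most of the machinery. With TCF3-ZNF384, 37 genes were called lower and 1 higher by edgeR, against 23.4% and 22.2% of all tested genes, with a median log2 fold change of −0.78 (0.00 for all tested genes). Both libraries lay below both full-length libraries in 38 genes, against 36.2% of all tested genes. The leading changes were Polr1b (−1.43 ± 0.12, edgeR adjusted p = 9.28e-07), Rrp1b (−1.39 ± 0.13, edgeR adjusted p = 1.77e-06), Npm1 (−1.11 ± 0.11, edgeR adjusted p = 3.68e-06) and Utp3 (−1.05 ± 0.11, edgeR adjusted p = 4.81e-06), while Ubtf rose (0.40 ± 0.09, edgeR adjusted p = 0.00293). Polr1c at −0.07 ± 0.12 and Wdr74 at −0.31 ± 0.13 passed no threshold. In fits without 1 library, 32 to 36 genes were called lower, and 31 of the 37 in all 8 fits.

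With TAF15-ZNF384, 27 genes were called lower and 0 higher than with full-length ZNF384 by edgeR, against 17.9% and 15.4% of all tested genes. At an unadjusted p under 0.05 there were 31 lower and 0 higher, and the DESeq2 Wald test and limma-voom called 0 higher too. Noc2l was called higher in both fits that left out a TCF3-ZNF384 replicate. The median log2 fold change was −0.46 for the 40 genes and −0.02 for all tested genes, and 32 genes lay below without overlap, against 34.5% of all tested genes. Utp3 (−1.03 ± 0.11, edgeR adjusted p = 1.64e-05), Rrp1b (−1.19 ± 0.13, edgeR adjusted p = 2.1e-05), Polr1b (−1.04 ± 0.13, edgeR adjusted p = 5.03e-05) and Npm1 (−0.77 ± 0.11, edgeR adjusted p = 0.000204) led. The count ran from 15, without TAF15-ZNF384 replicate 1, to 35 in fits without 1 library. The median was −0.24 without full-length replicate 1 and −0.63 without full-length replicate 2. These comparisons share the fusion libraries with those against the empty vector, so their changes are not independent of them.

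TCF3-ZNF384 and TAF15-ZNF384 were compared directly, since a call with one and not the other is no test of their difference. Reads assigned to Zfp384 were also higher with TCF3-ZNF384 (1.47 ± 0.24, edgeR adjusted p = 0.00772), so fusion and level cannot be told apart. By edgeR 6 genes were lower and 1 higher with TCF3-ZNF384, against 4.17% and 5.91% of all tested genes. The median log2 fold change was −0.26 for the 40 genes and 0.00 for all tested genes, and both TCF3-ZNF384 libraries were the lower in 32 genes, where 28.2% of all tested genes did so. Ubtf was higher (0.54 ± 0.10, edgeR adjusted p = 0.0024). Ppan (−0.65 ± 0.12, edgeR adjusted p = 0.00327), Noc2l (−1.05 ± 0.23, edgeR adjusted p = 0.012), Rrp9 (−0.57 ± 0.14, edgeR adjusted p = 0.019) and Fbl (−0.46 ± 0.12, edgeR adjusted p = 0.0219) were lower, as were Nop56 (−0.44 ± 0.12, edgeR adjusted p = 0.0345) and Nhp2 (−0.57 ± 0.16, edgeR adjusted p = 0.0408). For Utp3 the difference was −0.02 ± 0.11, with a 95% interval from −0.26 to 0.21. Ubtf was called in all 8 fits without 1 library and none of the 6 lower genes was. That count was 1 without either TAF15-ZNF384 replicate or TCF3-ZNF384 replicate 1, 2 without TCF3-ZNF384 replicate 2, and 21 without either full-length replicate.

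Other genes of the pathway were drawn from lists of further RNA polymerase I factors, subunit assembly factors, snoRNP assembly factors and RNA exosome subunits, 122 of which were tested. These lists too were chosen with earlier results of these data known. With TCF3-ZNF384, 56 (45.9%) fell and 2 (1.64%) rose over the empty vector, against 17.0% and 16.2% of all tested genes, with a median log2 fold change of −0.35. The count lower was 29 to 69 in fits without 1 library and 14 under total-count scaling. Surf6, a nucleolar matrix protein (−0.78 ± 0.10, edgeR adjusted p = 5.6e-05), and the snoRNP assembly factors Nufip1 (−0.63 ± 0.11, edgeR adjusted p = 0.000518) and Naf1 (−0.76 ± 0.13, edgeR adjusted p = 0.00058) led the falls. Rcl1, a processome protein, rose (0.97 ± 0.17, edgeR adjusted p = 0.000531), as did the helicase gene Ddx24 (0.60 ± 0.14, edgeR adjusted p = 0.0041). By group, 7 of 9 snoRNP assembly factors, 21 of 41 small subunit factors, 19 of 45 large subunit factors, 6 of 16 RNA polymerase I factors and 3 of 11 exosome subunits fell, the last a share of 27.3% beside the 17.0% of all tested genes.

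With TAF15-ZNF384, 19 (15.6%) of the 122 fell and 1 (0.82%) rose over the empty vector, against 6.01% and 5.01% of all tested genes, with a median of −0.23. In fits without 1 library the number that fell was 2 to 52. Gnl3l (−0.76 ± 0.12, edgeR adjusted p = 0.000936), a GTPase related to Gnl3, and Nsa2 (−0.65 ± 0.11, edgeR adjusted p = 0.00145), a large subunit factor, led the falls, and Urb2 rose (0.54 ± 0.10, edgeR adjusted p = 0.00282). With full-length ZNF384, 2 (1.64%) rose and 3 (2.46%) fell, both shares below the 10.8% and 9.87% of all tested genes, with a median of 0.08. Without 1 library the number that rose was 0 to 41 and the number that fell 1 to 19. Between the fusions 1 gene was called in each direction, against 5.91% higher and 4.17% lower of all tested genes, Rcl1 higher with TCF3-ZNF384 (1.12 ± 0.19, edgeR adjusted p = 0.00171) and Urb2 lower (−0.49 ± 0.10, edgeR adjusted p = 0.00554).

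**Figure D5:**
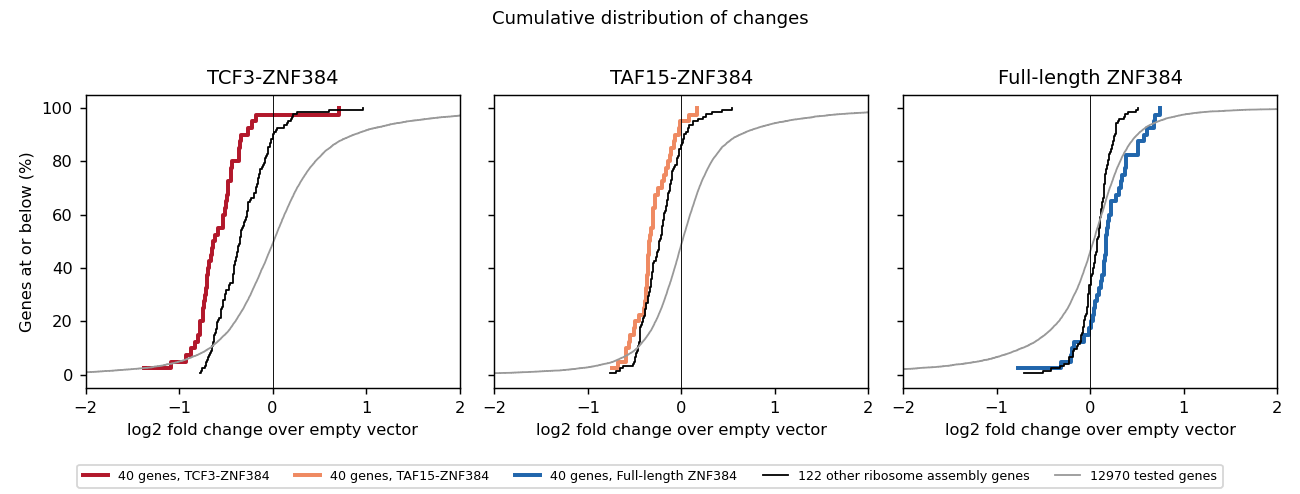
Cumulative share (%) of genes at or below each log2 fold change over the empty vector, for the 40 genes (coloured), 122 other ribosome assembly genes (black) and all 12970 tested genes (grey), one panel per construct. The coloured curve is left of the grey one with TCF3-ZNF384 (medians −0.63 and 0.01) and TAF15-ZNF384 (−0.34 and 0.01), and slightly right of it with full-length ZNF384 (0.17 and 0.03).

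Myc encodes the transcription factor most often tied to these genes. It was at 54.9 and 49.97 CPM with TCF3-ZNF384, 60.5 and 59.03 CPM with TAF15-ZNF384, 123 and 115 CPM with full-length ZNF384, and 87.7 and 78.7 CPM with the empty vector. Both fusion groups lay below full-length ZNF384 and the empty vector, without overlap. Myc fell with TCF3-ZNF384 (−0.67 ± 0.10, edgeR adjusted p = 0.000205) and TAF15-ZNF384 (−0.48 ± 0.10, edgeR adjusted p = 0.00906) and rose with full-length ZNF384 (0.52 ± 0.10, edgeR adjusted p = 0.00235). The TAF15-ZNF384 call was lost without either replicate of that group (edgeR adjusted p of 0.0879 and 0.0947) and without empty vector replicate 1 (edgeR adjusted p = 0.118), and the full-length call without empty vector replicate 2 (edgeR adjusted p = 0.059). Its part in the changes of the 40 genes was not tested.

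The 6 proliferation markers Mki67, Top2a, Ccnb1, Cdk1, Mcm2 and Pcna summed to 4015 and 3841 CPM with TCF3-ZNF384, 5013 and 5082 CPM with TAF15-ZNF384, 6689.75 and 5631 CPM with full-length ZNF384, and 5649.98 and 5207 CPM with the empty vector. All 6 fell with TCF3-ZNF384 over the empty vector in edgeR and DESeq2, and all but Pcna in limma-voom. With TAF15-ZNF384, 0 of the 6 passed in edgeR, DESeq2 or limma-voom, and 0 had an unadjusted p under 0.05 in edgeR. With full-length ZNF384, Cdk1 rose and Pcna fell. Over full-length ZNF384, edgeR called 5 markers lower with TCF3-ZNF384, and 4 lower and 1 higher with TAF15-ZNF384. A chosen set of 5 abundant non-coding genes was Gm26917, Rpph1, Rmrp, Gm42418 and AY036118. They held 18.5% and 24.5% of counts with TCF3-ZNF384, and 28.1% and 29.6% with TAF15-ZNF384. Their share was 10.9% and 12.5% with full-length ZNF384, and 27.2% and 33.2% with the empty vector. The share of these non-coding genes and the proliferation markers differed between some of the groups. The part of either in the changes of the 40 genes was not tested.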

How the data were processed

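The table holds raw counts per gene, which the authors deposited; the submitters' processing notes name HTSeq 0.6.1p1 and mm9; libraries were stranded total RNA, per the labels' protocols. Aligner, annotation and strand setting are not given in the sources used here. All columns were used. Counts were fitted in R 4.3.3 with edgeR 4.0.16: filterByExpr by group, TMM scaling, and a robust quasi-likelihood model of the 4 groups over all 8 libraries (4 residual degrees of freedom, biological coefficient of variation 0.0958). The 6 pairwise comparisons were tested 2-sided, with Benjamini-Hochberg adjustment over 12970 genes and a threshold of 0.05. SE is the fold change divided by the root of F. The 2 libraries a group limit the precision. Each edgeR p-value sets a group difference against the spread between these replicate libraries, estimated over all 4 groups. Correlations of replicate libraries were 0.988 to 0.994. Libraries of the same replicate number deviated from their group means with correlations of −0.0018 to 0.226, and no pairing was assumed in the main fit. With the replicate number as a block, more genes were called in all 6 comparisons. Over the empty vector they were 4655 against 4317 for TCF3-ZNF384 and 1825 against 1430 for TAF15-ZNF384. The source of this rise was not tested. Column names of the other 6 libraries carry a suffix that those of the empty vector do not. Its number differs from the title's replicate number for the 3 libraries titled replicate 1, and the titles' numbers were used here, also for the replicate block. Any separate preparation behind it cannot be told apart from the group.

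The 40 genes and the wider lists were chosen with earlier results of these data known. Per-library values are given for the RNA polymerase I genes, Ncl, Npm1, Fbl, up to 4 genes per direction and comparison with the smallest adjusted p, and the largest change in each. Of the wider lists, 125 genes were looked for, and up to 3 per direction were eligible to be named. Alternatives were DESeq2 1.42.0 (size factors, Wald test), limma-voom (limma 3.58.1), no filter, and a filter of 2 CPM in 2 libraries. Further ones were separate fits per pair of groups, a replicate block and total-count scaling. The 5 abundant non-coding genes named above were also removed, with and without that scaling. Each library was also left out in turn, which assumes that the remaining library of that group varies as the other groups do. An erythroid marker other than the 4 genes summed for that list is not reported here. Coordinates come from GENCODE vM1 (NCBIM37) by symbol, and promoters from RefSeq (GRCm38.p6).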

Additional observations from a re-analysis of the deposited data

How the results depend on the processing

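For TCF3-ZNF384 over the empty vector, the 35 genes called lower were 23 to 36 in fits without 1 library, with a median of −0.67 to −0.57, and 2501 to 5372 of all genes were called, against 4317. Total-count scaling gave 19 lower and a median of −0.32. For TAF15-ZNF384 over the empty vector, the 7 called lower were 1 to 24 in fits without 1 library, 3 by limma-voom, 19 with no filter, 23 in a fit of only the 2 groups compared and 13 with the replicate block. All genes called were 404 to 2783 without 1 library and 2746 in the fit of 2 groups, against 1430, and the median was −0.20 under total-count scaling. For full-length ZNF384 over the empty vector, the 11 called higher were 4 to 25 without 1 library, 5 in the fit of 2 groups and 32 under total-count scaling. The 1 called lower was 0 to 5, and the median was −0.068 to 0.34, turning negative without full-length replicate 1. All genes called were 1064 to 3814 without 1 library and 6236 under total-count scaling, against 2675, and that scaling gave a median of 0.47. For TCF3-ZNF384 over full-length ZNF384, 3866 to 6558 genes were called without 1 library, against 5916, with 32 to 36 of the 40 lower. For TAF15-ZNF384 over full-length ZNF384, the 27 lower were 15 to 35 and the 0 higher 0 to 1 without 1 library, with a median of −0.63 to −0.24 and 2158 to 5333 genes called against 4320. Noc2l was the 1 called higher, also with no filter and in the fit of 2 groups. Between the fusions, the 6 lower were 1 to 21 without 1 library, 20 in the fit of 2 groups and 2 under total-count scaling, where the median was −0.084. All genes called were 371 to 2361, 2548 and 1989 in the same order, against 1308. Single genes turned in 2 cases, both for full-length ZNF384 over the empty vector. Mrto4 was −0.39 without full-length replicate 1 (edgeR adjusted p = 0.0446), and Gnl3l of the wider list was 0.30 under total-count scaling. The cause of these shifts was not tested. Fits without a library or group have fewer samples, yet the TAF15-ZNF384 fit of 2 groups called 2746 genes against 1430. Under total-count scaling, the median of all tested genes was 0.32, 0.15 and 0.35 for TCF3-ZNF384, TAF15-ZNF384 and full-length ZNF384 over the empty vector. It was −0.19 for TAF15-ZNF384 over full-length ZNF384 and 0.17 between the fusions. For TCF3-ZNF384 over full-length ZNF384 it hardly moved, at −0.0053 against 0.0017. For the 3 comparisons with the empty vector, the 40 genes were also set against this median. The 40 genes' median relative to it was −0.64, −0.35 and 0.13 for the first 3. The share of higher genes among all called was 85.0% under that scaling against 48.8% for TCF3-ZNF384, 76.0% against 45.5% for TAF15-ZNF384 and 89.8% against 52.1% for full-length ZNF384 over the empty vector. It was 25.5% against 46.4% for TAF15-ZNF384 over full-length ZNF384 and 85.1% against 58.6% between the fusions. With total-count scaling that left out the 5 abundant non-coding genes, it was 67.6% and 67.1% for TCF3-ZNF384 and TAF15-ZNF384 over the empty vector. Over full-length ZNF384, it was 65.6% and 65.0% with that scaling, in the same order. The replicate block moved no other count of the 40 genes by over 1.5 times. The 3 shallowest libraries all carry a fusion, and the effect of depth on the counts of calls was not tested.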
